A study of Mus musculus with 8 samples.

Results

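This account concerns 9 genes of the mitochondrial route from pyruvate through the citrate cycle: Pdhb, Cs, Idh3a, Idh3b, Ogdh, Suclg1, Fh1, Mdh1 and Mdh2. They were chosen by name, and every probe that the platform annotation assigns to one of these symbols was taken, which gave 14 of the 25697 probes on the array and 9 of the 16593 gene symbols. Expression was measured in primary bone marrow-derived macrophages of C57BL/6 mice aged 6 to 8 weeks. Marrow cells had been kept with M-CSF at 5 ng/ml for 16 h and the non-adherent cells then with M-CSF at 30 ng/ml for 3 days. RANKL, the cytokine that turns macrophages into bone-resorbing osteoclasts, was then added at 50 ng/ml beside M-CSF (30 ng/ml) for 0, 1, 2 or 3 days, and each day had 2 single-colour MouseRef-8 v2.0 bead arrays. Whether both arrays of a day had their own culture or mouse, and whether mice were pooled, is not stated in the labels, so p-values here reflect the spread of these samples alone, which may be technical. No time-matched cells without RANKL were measured, and RANKL and longer culture cannot be told apart.

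Pyruvate made by glycolysis enters the mitochondrion and is turned into acetyl-CoA by the pyruvate dehydrogenase complex. The citrate cycle oxidises the acetyl group in a ring of reactions and hands the electrons to the respiratory chain, which makes ATP from them. Osteoclasts are known as cells rich in mitochondria, and pumping acid onto bone uses much ATP. Mdh1 stands apart from the other 8 genes, since its product, cytosolic malate dehydrogenase, works outside the mitochondrion in the malate-aspartate shuttle, which moves reducing equivalents of the cytosol inward.

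The arrays were alike in depth: between 11281 and 11361 probes were detected on each (detection p under 0.05), the median signal lay between 165 and 181, and same-day arrays had correlations of r = 0.993 to 0.995 over the 12683 tested probes (probes are not independent replicates). Of 6 osteoclast markers (Acp5, Ctsk, Mmp9, Oscar, Calcr, Dcstamp) 4 were higher at day 1 and 6 at days 2 and 3. Of 4 measured macrophage markers (Adgre1, Itgam, Lyz2, Cd14) 2 were lower at day 1 and 3 at days 2 and 3. Markers of other marrow cells were read over the same days in 7 lists, of which the mast cell and dendritic sums lay near background. The summed linear level of 7 neutrophil and granulocyte precursor genes lay between 1195 and 1269.7 on day 0, 877 and 988 on day 1, 359 and 369 on day 2, and 331 and 340.1 on day 3, with Ngp detected on no array. The lists of T and NK cells (6 genes, 201 to 211 on day 3 against 1478 to 1485 on day 0, with Cd3e, Cd8a and Nkg7 detected on no array), B lineage (4 genes, 107 to 108 against 251 to 256, with Cd79a, Ms4a1 and Pax5 detected on no array) and erythroid and megakaryocyte cells (2 genes, 106 to 119 against 1621 to 2039, with Hba-a1 detected on no array) were also lower. The falls of these 3 lists rest mostly on 1 gene each. Mean log2 values on days 0 and 3 were 10.36 and 6.27 for Il7r, 7.40 and 5.18 for Cd79b, and 10.81 and 6.43 for Pf4. The osteoblast and stromal list (5 genes, Bglap and Col1a2 detected on no array) summed to 169 to 200.3 on day 0, 315 to 325 on day 1, 278 to 310.2 on day 2 and 198 to 224 on day 3. Its rise rests on Dcn, with mean log2 values of 4.84, 7.45, 7.22 and 5.98 on days 0, 1, 2 and 3. The mast cell and basophil list (3 genes, Cpa3 and Mcpt8 detected on no array) summed to 74.0 to 75.6 on day 0, 100.3 to 104 on day 1, 91.0 to 108 on day 2 and 77.1 to 84.6 on day 3. Its rise rests on Gata2, called higher on days 1 and 2. The dendritic list (4 genes, 3 of them detected on no array) summed to 103 to 106 on day 0, 95.5 to 101 on day 1, 112 to 129.7 on day 2 and 121 to 123 on day 3. Their part in the results below was not tested. In bulk RNA, a change in the share of a cell type and a change in RNA per cell cannot be told apart.

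The stretch before a gene's start holds sites for the factors that set its transcription, and these letters are shown because all 9 genes were called higher at days 2 and 3. Whether the letters bear on that rise was not tested. The 250 bases before the annotated start were taken from RefSeq (build GRCm38.p6) for the 8 matched genes (Idh3a had no match) and searched on both strands. CCAAT, read as ATTGG on the other strand and known as the CCAAT box, stood in 6 of the 8 genes (Pdhb, Cs, Idh3b, Ogdh, Fh1 and Mdh1), against 41.3% of 7115 tested genes with a window and 37.5% of 27025 genes in all. The stretches of 2 genes that had risen by day 1 (Pdhb and Cs) and of 2 that had not (Fh1 and Mdh1) are printed 5′ to 3′ and end at the base before the start, with CCAAT or ATTGG in capitals:
Pdhb, chr14:8172993-8173242, minus strand: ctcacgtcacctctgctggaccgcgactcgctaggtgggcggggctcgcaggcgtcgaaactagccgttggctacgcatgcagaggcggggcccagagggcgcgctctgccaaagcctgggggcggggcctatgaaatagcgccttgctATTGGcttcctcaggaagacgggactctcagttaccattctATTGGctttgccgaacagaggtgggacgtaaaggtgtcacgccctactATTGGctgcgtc
Cs, chr10:128337477-128337726, plus strand: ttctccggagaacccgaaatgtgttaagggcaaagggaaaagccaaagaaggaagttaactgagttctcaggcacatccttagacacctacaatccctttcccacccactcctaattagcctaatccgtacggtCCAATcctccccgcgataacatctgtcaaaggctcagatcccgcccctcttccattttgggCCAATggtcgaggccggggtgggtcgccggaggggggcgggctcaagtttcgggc
Fh1, chr1:175625636-175625885, minus strand: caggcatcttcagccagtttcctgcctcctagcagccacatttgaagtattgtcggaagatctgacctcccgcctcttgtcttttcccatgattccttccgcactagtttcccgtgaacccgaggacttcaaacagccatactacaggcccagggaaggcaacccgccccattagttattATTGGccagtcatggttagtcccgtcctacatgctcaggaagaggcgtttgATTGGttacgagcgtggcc
Mdh1, chr11:21571935-21572184, minus strand: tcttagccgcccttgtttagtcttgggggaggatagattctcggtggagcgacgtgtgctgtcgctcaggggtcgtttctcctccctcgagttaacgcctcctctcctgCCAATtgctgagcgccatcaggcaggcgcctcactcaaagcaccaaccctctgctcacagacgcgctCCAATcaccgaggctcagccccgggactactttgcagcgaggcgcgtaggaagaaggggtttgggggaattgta
Pdhb held the box 3 times in this window, at 101, 60 and 12 bases before the start, and Cs, Fh1 and Mdh1 held it 2 times each. These 4 were picked among the 6 genes that hold it. Neither Mdh2, which was called higher at day 1, nor Suclg1 held it in this window. The Sp1 letters GGGCGG were found in 6 of the 8 genes (63.6% of tested genes), the E-box CACGTG in Ogdh only (10.3%) and TTTCCA, the core bound by NFAT factors, in Ogdh only (18.2%). AAGGTCA, the half-site of estrogen-related receptors (3.85% of tested genes), the nuclear respiratory factor 1 site (9.53%), the ETS letters CCGGAAG (16.1%) and the AP-1 letters TGANTCA (6.10%) were found in none. Ogdh has several annotated starts, whose windows partly overlap, and all of them were searched. A match or its absence describes these letters in these windows only.

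All 9 genes were higher with RANKL by day 2 and stayed so at day 3. A probe was tested where its detection p was under 0.05 on at least 2 of 8 arrays, and a gene was represented by its tested probe of highest mean. All 9 such probes were detected on all 8 arrays. Values are log2 intensities after background correction and quantile normalization, changes are differences of these, each followed by ± its standard error (2 arrays per day), and p-values are those of limma, adjusted by Benjamini-Hochberg over all 12683 tested probes, with 0.05 as the threshold. At day 1, 5 of 9 genes were called higher and none lower than at day 0, where 23.6% of all tested probes were called higher and 19.4% lower. At day 2 all 9 were higher (26.7% of all probes), and at day 3 all 9 again (28.1%), 8 of them at least 2-fold on either day (10.0% and 12.5% of all probes). The 9 genes had a median change of 0.45 (day 1), 1.37 (day 2) and 1.57 (day 3), beside 0.055, 0.031 and -0.0062 over all tested probes. The 3 comparisons share the 2 arrays of day 0, so their counts are not independent.

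**Figure D1:**
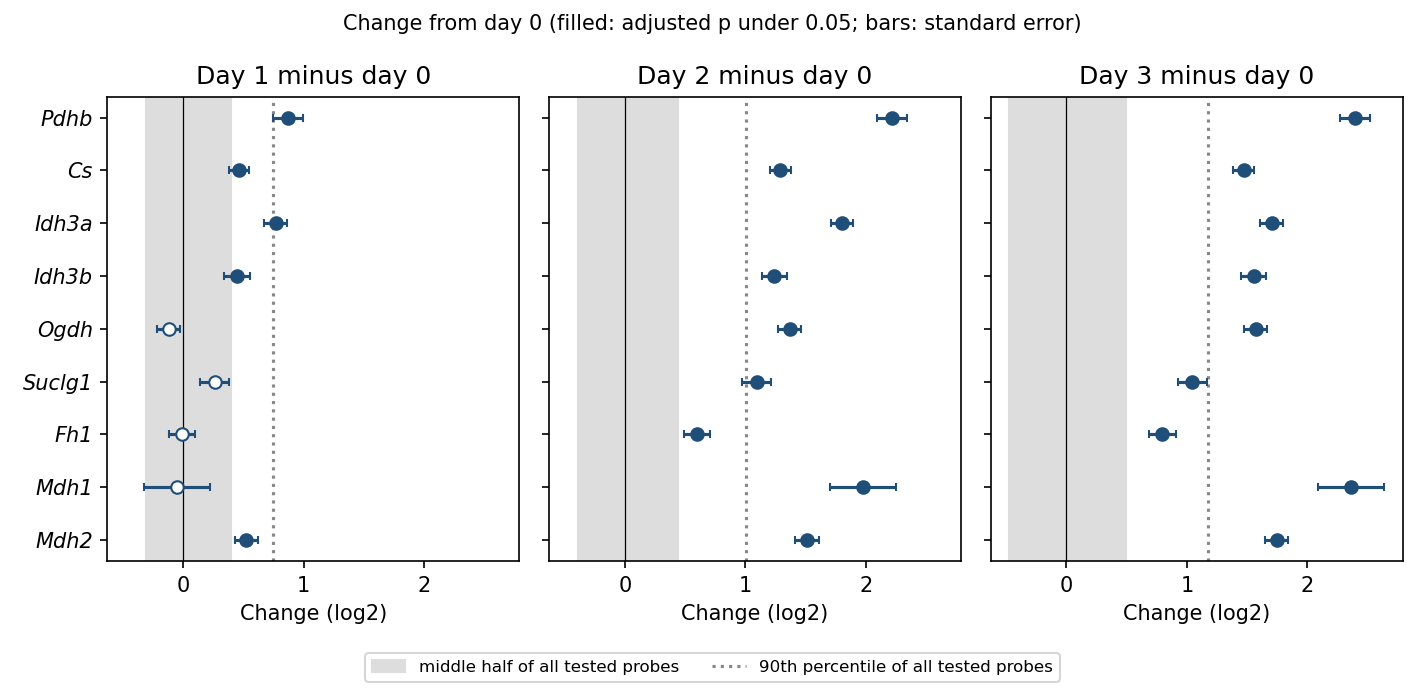
Change from day 0 of the 9 genes (log2, horizontal axis) at days 1, 2 and 3, for the probe of highest mean. Points are fitted changes, bars standard errors (n = 2 arrays per day), filled points have an adjusted p under 0.05, the grey band runs between the quartiles of all tested probes and the dotted line is their 90th percentile (0.75, 1.00 and 1.18); at day 1 the points lie between -0.12 and 0.87, and at days 2 and 3 all 9 lie right of the grey band.

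The steps between days differed in size. From day 1 to day 2 all 9 genes rose, between 0.61 and 2.03, with both arrays of day 2 above both of day 1 in all 9, where 21.1% of all probes were called higher and 35.0% had their arrays apart in this direction. From day 2 to day 3 none of the 9 main probes passed in limma (8.70% of all probes were called higher and 9.82% lower), with changes of -0.097 to 0.39, and 1 of the 9, Idh3b, had an unadjusted p under 0.05. In 7 of the 9 both arrays of day 3 lay above both of day 2. The share of all probes in this order is not given here, so the count is not read as a further rise. Other settings called up to 2 genes higher in this step, given below. By the moderated F test over the 4 days all 9 genes passed (69.9% of all probes). The highest mean fell on day 3 for 7 genes and on day 2 for Idh3a and Suclg1.

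**Figure D2:**
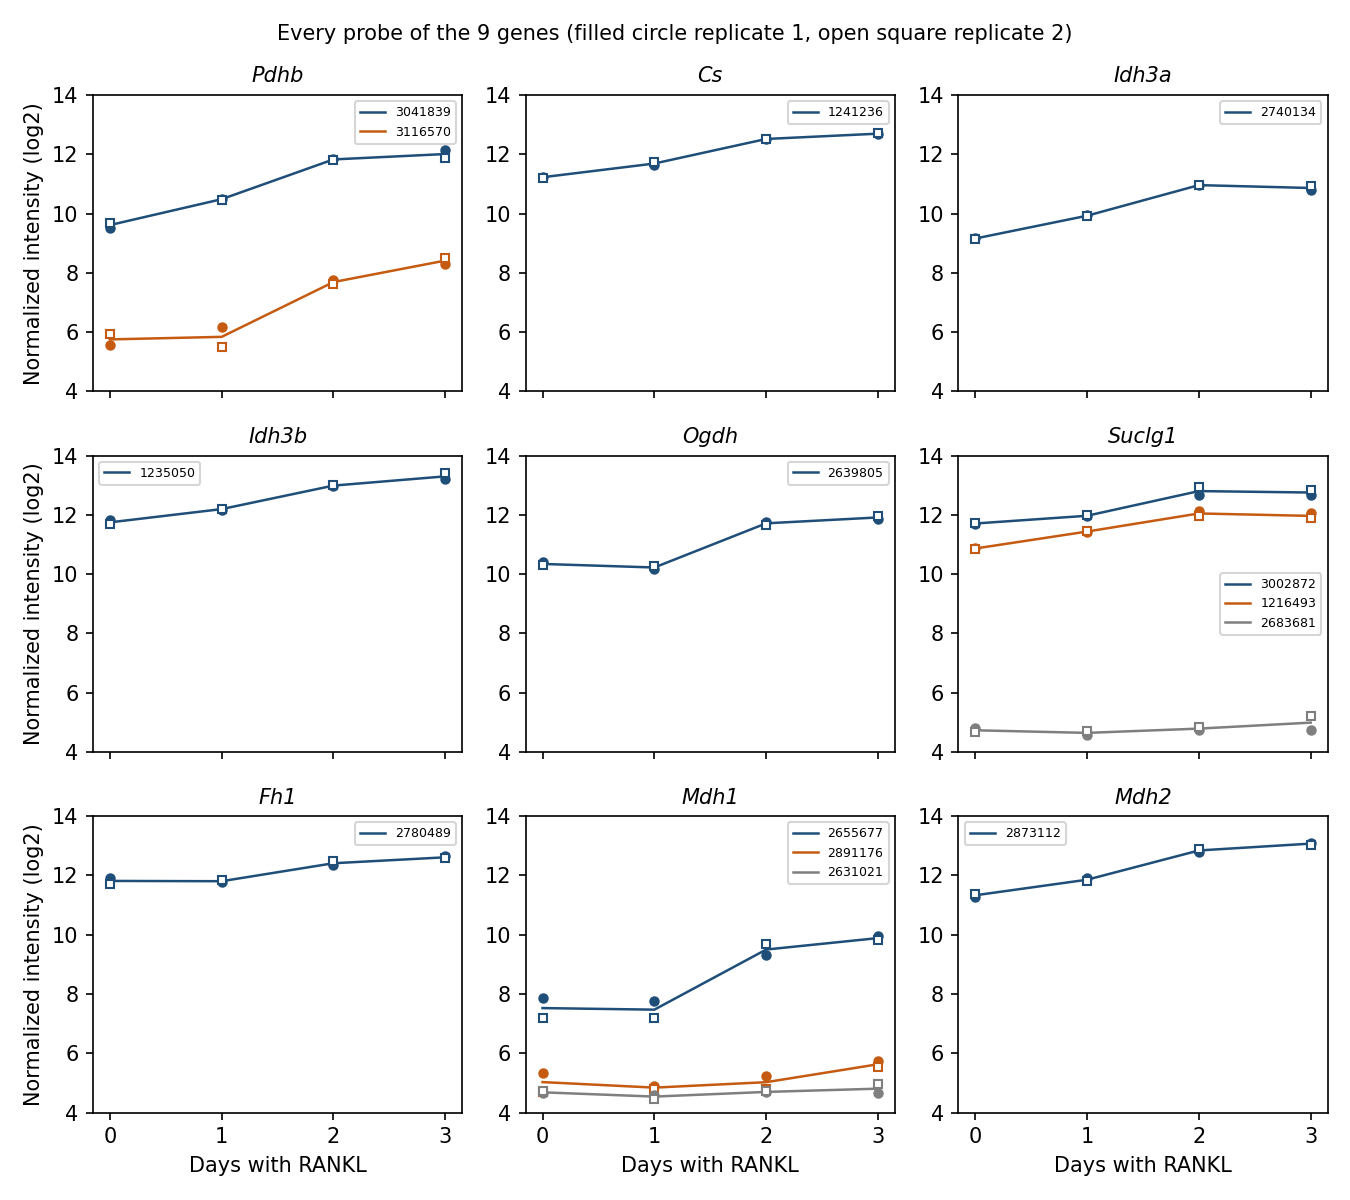
Normalized log2 intensity (vertical axis) of all 14 probes of the 9 genes by days with RANKL. Filled circles are replicate 1, open squares replicate 2, lines join the means of 2 arrays, and each legend gives the probe number; the blue line of every panel is the probe of highest mean, and all 9 blue lines climb between day 1 and day 2.

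Pdhb codes for the beta subunit of pyruvate dehydrogenase (E1), the enzyme at the entry to the cycle. Its probe of highest mean, ILMN_3041839, read 9.53 and 9.69 on day 0, 10.50 and 10.47 on day 1, 11.86 and 11.80 on day 2 and 12.16 and 11.86 on day 3. The arrays of days 0, 1 and 2 stood fully apart, and day 3 lay level with day 2 or just above it. Pdhb rose by 0.87 ± 0.12 (1.83-fold, limma adjusted p = 0.00147) at day 1, 2.22 ± 0.12 (4.64-fold, limma adjusted p = 1.17e-05) at day 2 and 2.40 ± 0.12 (5.27-fold, limma adjusted p = 6.25e-06) at day 3. At day 3 its increase exceeded that of the other 8 genes, and 2.53% of all tested probes had a larger one. The further probe, ILMN_3116570, read 5.56 and 5.95 on day 0, 6.17 and 5.51 on day 1, 7.76 and 7.62 on day 2 and 8.31 and 8.51 on day 3. Its arrays at days 0 and 1 overlapped and those of days 2 and 3 were higher. It gave 0.086 ± 0.23 (limma adjusted p = 0.795) at day 1, and rose by 1.94 ± 0.23 (limma adjusted p = 4.48e-04) at day 2 and 2.66 ± 0.23 (limma adjusted p = 7.43e-05) at day 3. The day 1 changes of the 2 probes differed by -0.79 ± 0.25 (limma adjusted p = 0.146), further minus main, which did not pass (3.50% of all probe pairs did). The differences at days 2 and 3 were -0.28 ± 0.25 (limma adjusted p = 0.638) and 0.26 ± 0.25 (limma adjusted p = 0.641). Without background correction all 3 passed, at -0.74, -1.21 and -0.92 for days 1, 2 and 3 (limma adjusted p = 1.25e-04, 9.14e-08 and 4.17e-06), and the further probe's change at day 3 was 1.29. With the authors' processed values they passed too, at -0.65, -0.88 and -0.53 (limma adjusted p = 0.0231, 0.00221 and 0.0427), so both settings turned the sign at day 3. From day 2 to day 3 the further probe gave 0.73 ± 0.23 (limma adjusted p = 0.0738), which passed in 6 other settings, among them no background correction (0.47, limma adjusted p = 6.96e-04) and the authors' values (0.54, limma adjusted p = 0.0111), and without either array of day 1 (limma adjusted p = 0.0423 and 0.0424). Both probes were called higher at days 2 and 3 in each setting that tested them.

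Cs codes for citrate synthase, which joins acetyl-CoA to oxaloacetate and so opens the cycle. Its single probe read 11.24 and 11.21 on day 0, 11.65 and 11.73 on day 1, 12.52 and 12.51 on day 2 and 12.68 and 12.71 on day 3. The 4 days did not overlap, and each was above the one before. Cs rose by 0.46 ± 0.085 (1.38-fold, limma adjusted p = 0.00462) at day 1, 1.29 ± 0.085 (2.45-fold, limma adjusted p = 2.38e-05) at day 2 and 1.47 ± 0.085 (2.77-fold, limma adjusted p = 1.02e-05) at day 3. The last step, day 3 minus day 2, was 0.18 ± 0.085 (limma adjusted p = 0.188).

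Idh3a and Idh3b code for the alpha and beta subunits of the NAD-dependent isocitrate dehydrogenase of the mitochondrion. Idh3a read 9.19 and 9.13 on day 0, 9.94 and 9.91 on day 1, 10.97 and 10.95 on day 2 and 10.78 and 10.94 on day 3. Days 2 and 3 stood well above day 1, and day 3 lay just below day 2. Idh3a rose by 0.77 ± 0.095 (1.70-fold, limma adjusted p = 7.75e-04) at day 1, 1.80 ± 0.095 (3.49-fold, limma adjusted p = 8.75e-06) at day 2 and 1.70 ± 0.095 (3.26-fold, limma adjusted p = 8.56e-06) at day 3, and day 3 minus day 2 was -0.097 ± 0.095 (limma adjusted p = 0.517). Idh3b read 11.81 and 11.68 on day 0, 12.18 and 12.21 on day 1, 12.96 and 13.01 on day 2 and 13.20 and 13.40 on day 3. It climbed without overlap from each day to the next. Idh3b rose by 0.45 ± 0.11 (1.36-fold, limma adjusted p = 0.0129) at day 1, 1.24 ± 0.11 (2.36-fold, limma adjusted p = 8.02e-05) at day 2 and 1.55 ± 0.11 (2.93-fold, limma adjusted p = 2.15e-05) at day 3. Its day 1 call was lost without replicate 2 of day 0 (limma adjusted p = 0.0643), without replicate 1 of day 1 (limma adjusted p = 0.0512) and without replicate 2 of day 1 (limma adjusted p = 0.0658). The step from day 2 to day 3 was 0.31 ± 0.11 (limma adjusted p = 0.0842) for Idh3b, and it passed in 4 other settings. The gamma subunit, Idh3g, belongs to the same enzyme and was not one of the 9; both of its probes were called higher at each of days 1, 2 and 3, with the main one at 0.54 ± 0.12, 0.95 ± 0.12 and 1.02 ± 0.12.

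Ogdh codes for the E1 subunit of the 2-oxoglutarate dehydrogenase complex, which makes succinyl-CoA. Its probe read 10.39 and 10.30 on day 0, 10.18 and 10.27 on day 1, 11.76 and 11.67 on day 2 and 11.86 and 11.97 on day 3. Both arrays of day 1 lay just under those of day 0, and days 2 and 3 were apart above both. Ogdh gave -0.12 ± 0.096 (limma adjusted p = 0.360) at day 1, and rose by 1.37 ± 0.096 (2.59-fold, limma adjusted p = 3.20e-05) at day 2 and 1.57 ± 0.096 (2.97-fold, limma adjusted p = 1.31e-05) at day 3. Its step from day 1 to day 2, 1.49 ± 0.096 (limma adjusted p = 6.06e-05), was exceeded among the 9 genes only by that of Mdh1. Dlst, the E2 subunit of the same complex and not one of the 9, was called higher at day 1 already, by 0.68 ± 0.090 (limma adjusted p = 0.00109). The day 1 changes of these subunits, -0.12 for Ogdh and 0.68 for Dlst, were not tested against each other.

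Suclg1 codes for the alpha subunit of succinyl-CoA synthetase, the step of the cycle that yields GTP or ATP directly. Its probe of highest mean, ILMN_3002872, read 11.68 and 11.74 on day 0, 11.96 and 11.98 on day 1, 12.68 and 12.93 on day 2 and 12.66 and 12.85 on day 3. Day 1 lay slightly above day 0, and days 2 and 3 overlapped above them. It gave 0.26 ± 0.12 (limma adjusted p = 0.120) at day 1, and rose by 1.09 ± 0.12 (2.13-fold, limma adjusted p = 2.71e-04) at day 2 and 1.05 ± 0.12 (2.06-fold, limma adjusted p = 2.77e-04) at day 3. Another probe, ILMN_1216493, read 10.88 and 10.85 on day 0, 11.43 and 11.45 on day 1, 12.12 and 11.97 on day 2 and 12.05 and 11.88 on day 3. Here day 1 stood clearly above day 0. It rose by 0.57 ± 0.10 (limma adjusted p = 0.00424) at day 1, 1.18 ± 0.10 (limma adjusted p = 9.27e-05) at day 2 and 1.10 ± 0.10 (limma adjusted p = 1.06e-04) at day 3. The probes' day 1 changes differed by 0.31 ± 0.19 (limma adjusted p = 0.470), which did not pass, so the call of Suclg1 at day 1 rests on the choice of probe: the mean of both probes gave 0.42 (limma adjusted p = 0.00412), and the first probe passed in 3 further settings. The remaining probe of Suclg1, ILMN_2683681, had signals of 157 to 178 and was detected on no array (lowest detection p 0.0514), so it was not tested.

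Fh1 codes for fumarate hydratase, which adds water to fumarate to make malate. Its probe read 11.92 and 11.71 on day 0, 11.78 and 11.83 on day 1, 12.34 and 12.48 on day 2 and 12.65 and 12.58 on day 3. Days 0 and 1 overlapped, and days 2 and 3 were higher. Fh1 gave -0.0094 ± 0.11 (limma adjusted p = 0.956) at day 1, and rose by 0.60 ± 0.11 (1.51-fold, limma adjusted p = 0.00334) at day 2 and 0.80 ± 0.11 (1.74-fold, limma adjusted p = 7.00e-04) at day 3. Of the 9 genes it was the only one under 2-fold at days 2 and 3, by the probe of highest mean after quantile normalization. Under median scaling the main probe of Suclg1 was also under 2-fold at day 3 (log2 change 0.98). With its tested probes averaged, Mdh1 was under 2-fold at day 2 (0.99).

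Mdh2 codes for mitochondrial malate dehydrogenase, which closes the cycle by making oxaloacetate. Its probe read 11.29 and 11.37 on day 0, 11.91 and 11.80 on day 1, 12.78 and 12.91 on day 2 and 13.11 and 13.04 on day 3. The 4 days stood apart in their order. Mdh2 rose by 0.53 ± 0.098 (1.44-fold, limma adjusted p = 0.00500) at day 1, 1.51 ± 0.098 (2.85-fold, limma adjusted p = 2.27e-05) at day 2 and 1.74 ± 0.098 (3.35-fold, limma adjusted p = 9.20e-06) at day 3.

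Mdh1, the cytosolic enzyme, had 3 probes, whose courses differed. The probe of highest mean, ILMN_2655677, had deposited signals of 388 and 288 on day 0, 389.9 and 302 on day 1, 748 and 996 on day 2 and 989 and 955 on day 3, and log2 values of 7.86 and 7.19 on day 0, 7.75 and 7.20 on day 1, 9.31 and 9.69 on day 2 and 9.96 and 9.82 on day 3. Its replicates at days 0 and 1 were far apart, the first above the second both times, yet days 2 and 3 lay above all 4 of them. It gave -0.053 ± 0.27 (limma adjusted p = 0.897) at day 1, and rose by 1.98 ± 0.27 (3.93-fold, limma adjusted p = 8.69e-04) at day 2 and 2.36 ± 0.27 (5.14-fold, limma adjusted p = 2.94e-04) at day 3. The probe ILMN_2891176 had signals of 180.4 and 161 on day 0, 173 and 168 on day 1, 179.8 and 174 on day 2 and 186 and 186 on day 3, and log2 values of 5.35 and 4.71 on day 0, 4.90 and 4.79 on day 1, 5.25 and 4.81 on day 2 and 5.74 and 5.52 on day 3. It was detected on 3 arrays only, replicate 1 of day 0 and both of day 3. It gave -0.19 ± 0.23 (limma adjusted p = 0.565) at day 1, -0.0032 ± 0.23 (limma adjusted p = 0.992) at day 2 and 0.60 ± 0.23 (limma adjusted p = 0.0649) at day 3, none of which passed. The authors' processed values called it higher at day 3 (0.38, limma adjusted p = 0.0326), as did the fit without replicate 1 of day 0 (limma adjusted p = 0.0135), which leaves day 0 with an array on which the probe was not detected. The probe ILMN_2631021 was detected on no array (signals of 151 to 169.9, lowest detection p 0.128) and was not tested.

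The disagreement of the Mdh1 probes was tested on the difference between 2 probes of a gene on the same array, in a fit of all 3283 such pairs from 2347 genes. ILMN_2891176 minus ILMN_2655677 changed by -1.98 ± 0.27 (limma adjusted p = 0.00445) from day 0 to day 2 and by -1.76 ± 0.27 (limma adjusted p = 0.00622) from day 0 to day 3, where 5.67% and 8.92% of all pairs passed. ILMN_2891176 was detected on 1 array of day 0 and on none of days 1 and 2, so over those days its level is only bounded and these differences mostly restate the change of ILMN_2655677. The pair passed the F test over the 4 days (limma adjusted p = 0.00460), as did 9.26% of pairs. The pairs of Pdhb and Suclg1 did not (limma adjusted p = 0.109 and 0.671). The probes' letters were not used here, so which part of the Mdh1 transcript each one reads is not stated. The increase of Mdh1 rests on 1 probe of 3. Averaging both tested probes gave 0.99 at day 2 and 1.48 at day 3, values that include the probe near background and are no better estimate for the gene.

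**Figure D3:**
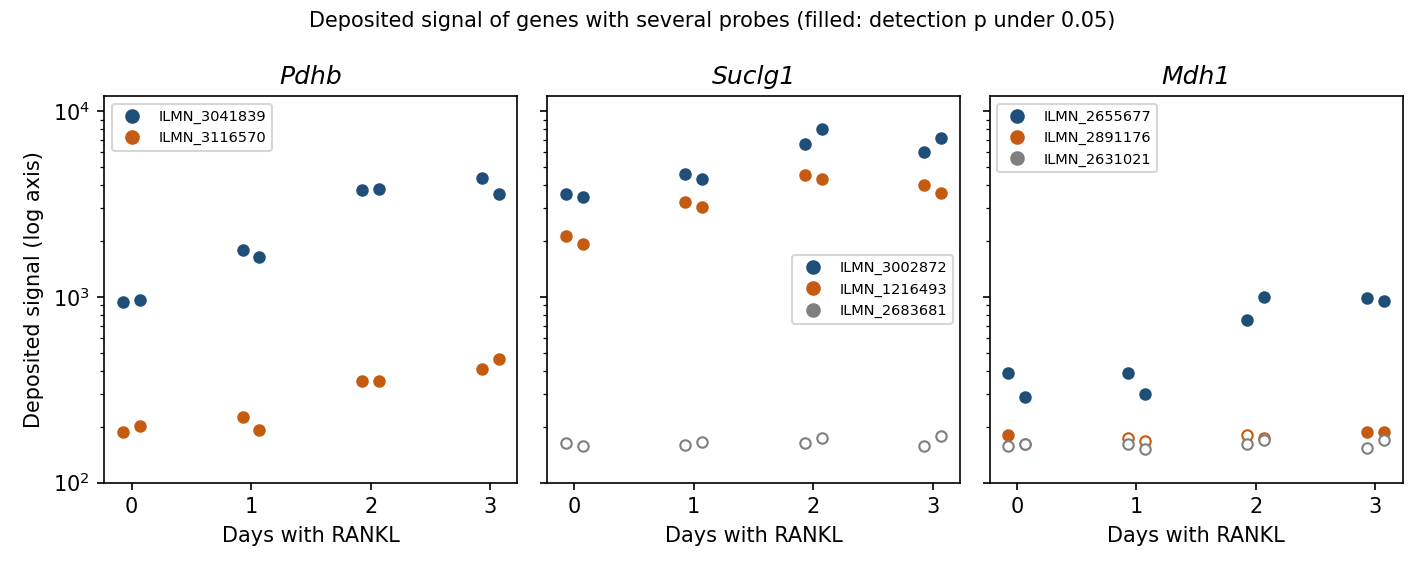
Deposited signal (log axis, arbitrary units) of every probe of Pdhb, Suclg1 and Mdh1 by days with RANKL, 2 arrays per day side by side. Filled points have a detection p under 0.05 and open points do not; 1 probe of Suclg1 and 1 of Mdh1 are open throughout, and ILMN_2891176 of Mdh1 stays between 161 and 186 while ILMN_2655677 climbs to 955 and 989 at day 3.

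By their first step the genes formed no single pattern. Pdhb, Cs, Idh3a, Idh3b and Mdh2 were called higher at day 1, at 28.8% to 45.1% of their day 3 change on the log2 scale. Ogdh, Fh1 and Mdh1 gave changes below 0 that did not pass (-0.12, -0.0094 and -0.053), and under median scaling these were above 0 and did not pass either. Median scaling shifted the median day 1 change of all probes to 0.15, against 0.055 after quantile normalization. By day 2 every gene had reached at least 74.9% of its day 3 change. The step from day 1 to day 2 exceeded the day 1 step in all 9 genes after quantile normalization, a difference that was not itself tested. Under median scaling the order turned for Idh3a, with 0.85 from day 1 to day 2 and 0.90 at day 1.

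Other genes around pyruvate dehydrogenase and the cycle were read from lists written from general knowledge. Of all tested probes 23.6% were called higher and 19.4% lower at day 1, 26.7% higher at day 2 and 28.1% higher at day 3. The counts of each list stand beside these shares and were not tested against them. Of 5 listed further subunits of the pyruvate dehydrogenase complex 3 were tested, and of these 1 was higher at day 1 and 3 at days 2 and 3. Pdha1, the E1 alpha subunit that pairs with Pdhb, read 11.52 and 11.53 on day 0, 12.01 and 11.99 on day 1, 12.89 and 12.98 on day 2 and 13.15 and 13.12 on day 3. It climbed without overlap, like Pdhb at a smaller size, and rose by 0.48 ± 0.086 (limma adjusted p = 0.00417), 1.41 ± 0.086 (limma adjusted p = 1.69e-05) and 1.61 ± 0.086 (limma adjusted p = 7.10e-06) at days 1, 2 and 3. Dlat, the E2 core, rose by 1.17 ± 0.16 (limma adjusted p = 9.29e-04) at day 2 and 1.23 ± 0.16 (limma adjusted p = 5.91e-04) at day 3. Dld, the E3 subunit shared with the 2-oxoglutarate dehydrogenase complex, was not detected at day 0. At day 2 its level was higher by at least 2.21-fold (limma adjusted p = 0.00126) and at day 3 by at least 3.12-fold (limma adjusted p = 2.22e-04). A bound of this kind sets each undetected array at the lowest detected value of that array. Pdhx and Pdha2 did not pass the detection filter.

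Pdk1, Pdk2 and Pdk3, which code for kinases that switch the complex off by phosphorylating its E1 alpha subunit, rose beside it. Of 7 listed kinases and phosphatases 5 were tested, and none was called at day 1 (23.6% of all probes were higher and 19.4% lower). At day 2, 4 were higher (26.7% of all probes) and 1 lower, and at day 3, 4 were higher (28.1%). The share of all probes called lower at day 2 is not given here, so the count of 1 lower is not read as more than that share. Pdk1 rose by 1.13 ± 0.11 (limma adjusted p = 1.32e-04) at day 2 and 2.20 ± 0.11 (limma adjusted p = 4.61e-06) at day 3, with a further called step from day 2 to day 3 of 1.07 ± 0.11 (limma adjusted p = 0.00304). Pdk2, detected on 1 of 2 arrays at each of days 0 and 1, rose by 1.86 ± 0.30 (limma adjusted p = 0.00163) at day 3, and Pdk3 by 1.41 ± 0.098 (limma adjusted p = 2.41e-05). The phosphatase gene Pdp1, whose product removes these phosphates, read 6.84 and 7.01 on day 0, 6.72 and 6.60 on day 1, 6.11 and 6.09 on day 2 and 6.82 and 6.82 on day 3. It dipped at day 2 and was back near its day 0 level at day 3. Pdp1 fell by 0.82 ± 0.099 (limma adjusted p = 4.50e-04) at day 2, gave -0.11 ± 0.099 (limma adjusted p = 0.406) at day 3, and rose by 0.72 ± 0.099 (limma adjusted p = 0.00663) between these days. Pdp2, the other phosphatase, rose by 0.37 ± 0.11 (limma adjusted p = 0.0296) at day 2 and 0.69 ± 0.11 (limma adjusted p = 0.00165) at day 3, while its further probe gave 0.32 and 0.48, neither of which passed.

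Of 10 other enzyme genes of the cycle 7 were tested, of which 4 were higher at day 1, 7 at day 2 and 7 at day 3, with medians of 0.48, 0.95 and 1.05. Subunits of succinate dehydrogenase, which feeds the respiratory chain directly, were among them: at day 3 Sdhb rose by 1.74 ± 0.13 (limma adjusted p = 2.92e-05), Sdhd by 1.56 ± 0.18 (limma adjusted p = 2.74e-04) and Sdhc by 1.05 ± 0.087 (limma adjusted p = 5.71e-05). Of the further Sdhb probes 1 gave 1.68 and the other 0.45 at day 3, both called. Dlst rose by 1.41 ± 0.090 (limma adjusted p = 2.12e-05) at day 2 and 1.30 ± 0.090 (limma adjusted p = 2.48e-05) at day 3. From day 1 to day 2, 5 of the 7 genes were called higher (21.1% of all probes) and 2 did not pass, Suclg2 and Idh2. Suclg2, of the same enzyme as Suclg1, rose by 0.65 ± 0.092 (limma adjusted p = 0.00143) at day 1. Its step from day 1 to day 2 was 0.040 ± 0.092 (limma adjusted p = 0.757), and that of Idh2 0.46 ± 0.22 (limma adjusted p = 0.138). The further Suclg2 probe gave 0.77, 0.98 and 0.51 at days 1, 2 and 3, the last not called. Sdha was not analysed here, and Sucla2 did not pass the filter.

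Genes of pyruvate entry and of the malate-aspartate shuttle were divided, with day 1 counts near the shares of all probes. Of 8 listed genes 5 were tested. At day 1, 1 was higher and 1 lower (23.6% and 19.4% of all probes), and 2 were higher at days 2 and 3 (26.7% and 28.1%). Got1, the cytosolic aminotransferase that works with Mdh1 in the shuttle, read 6.82 and 7.13 on day 0, 6.80 and 7.16 on day 1, 8.33 and 8.50 on day 2 and 8.21 and 8.28 on day 3. Like the main probe of Mdh1 its arrays of days 0 and 1 overlapped and those of days 2 and 3 were higher, at 0.0062 ± 0.16 (limma adjusted p = 0.980), 1.44 ± 0.16 (limma adjusted p = 2.98e-04) and 1.27 ± 0.16 (limma adjusted p = 4.56e-04) for days 1, 2 and 3. Slc25a11, the malate carrier, rose by 0.77 ± 0.13 (limma adjusted p = 0.00173) at day 3. Got2, the mitochondrial aminotransferase of the shuttle, rose by 0.41 ± 0.085 (limma adjusted p = 0.00783) at day 1 and gave 0.052 ± 0.085 (limma adjusted p = 0.632) at day 3. Slc25a12, an aspartate-glutamate carrier, fell by 0.32 ± 0.093 (limma adjusted p = 0.0287) at day 1 and gave 0.013 ± 0.093 (limma adjusted p = 0.920) at day 3. Pcx, pyruvate carboxylase, was near background and gave -0.066 ± 0.22 (limma adjusted p = 0.819) at day 3.

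Enzymes beside the cycle were mixed, with a day 2 count near the share of all probes. Of 7 tested genes of cytosolic and side reactions 1 was higher and 3 lower at day 1 (23.6% and 19.4% of all probes). At day 2, 2 were higher (26.7%), and at day 3, 5 (28.1%). Me1, the cytosolic malic enzyme, fell by 1.31 ± 0.24 (limma adjusted p = 0.00436) at day 1 and gave 0.11 ± 0.24 (limma adjusted p = 0.717) at day 3, while its further probe gave -0.74 at day 1 and did not pass. Aco1, which serves as cytosolic aconitase and as an iron sensor, rose by 1.45 ± 0.28 (limma adjusted p = 0.00381) at day 3, Me2 by 0.66 ± 0.087 (limma adjusted p = 5.99e-04) and Acly, which splits citrate in the cytosol, by 0.61 ± 0.097 (limma adjusted p = 0.00147). Of 3 genes that make or attach lipoate, a cofactor of both dehydrogenase complexes, 2 were called higher at day 1 and 1 at each of days 2 and 3. The counts of days 2 and 3 lie near the shares of all probes (26.7% and 28.1%). Lias rose by 0.50 ± 0.13 (limma adjusted p = 0.0196) at day 1, 0.46 ± 0.13 (limma adjusted p = 0.0233) at day 2 and 0.50 ± 0.13 (limma adjusted p = 0.0141) at day 3. Lipt2, near background and detected on 1 of 2 arrays at day 0, rose by 0.60 ± 0.18 (limma adjusted p = 0.0323) at day 1, and gave 0.20 ± 0.18 (limma adjusted p = 0.383) at day 2 and 0.30 ± 0.18 (limma adjusted p = 0.199) at day 3. Lipt1, near background and detected on 1 of 2 arrays at each of days 0 and 1, gave -0.062 ± 0.32 (limma adjusted p = 0.898), 0.28 ± 0.32 (limma adjusted p = 0.514) and 0.36 ± 0.32 (limma adjusted p = 0.379) at days 1, 2 and 3. The further probe of Lipt2 was called higher on each of these days (0.41, 0.67 and 0.61).

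**Figure D4:**
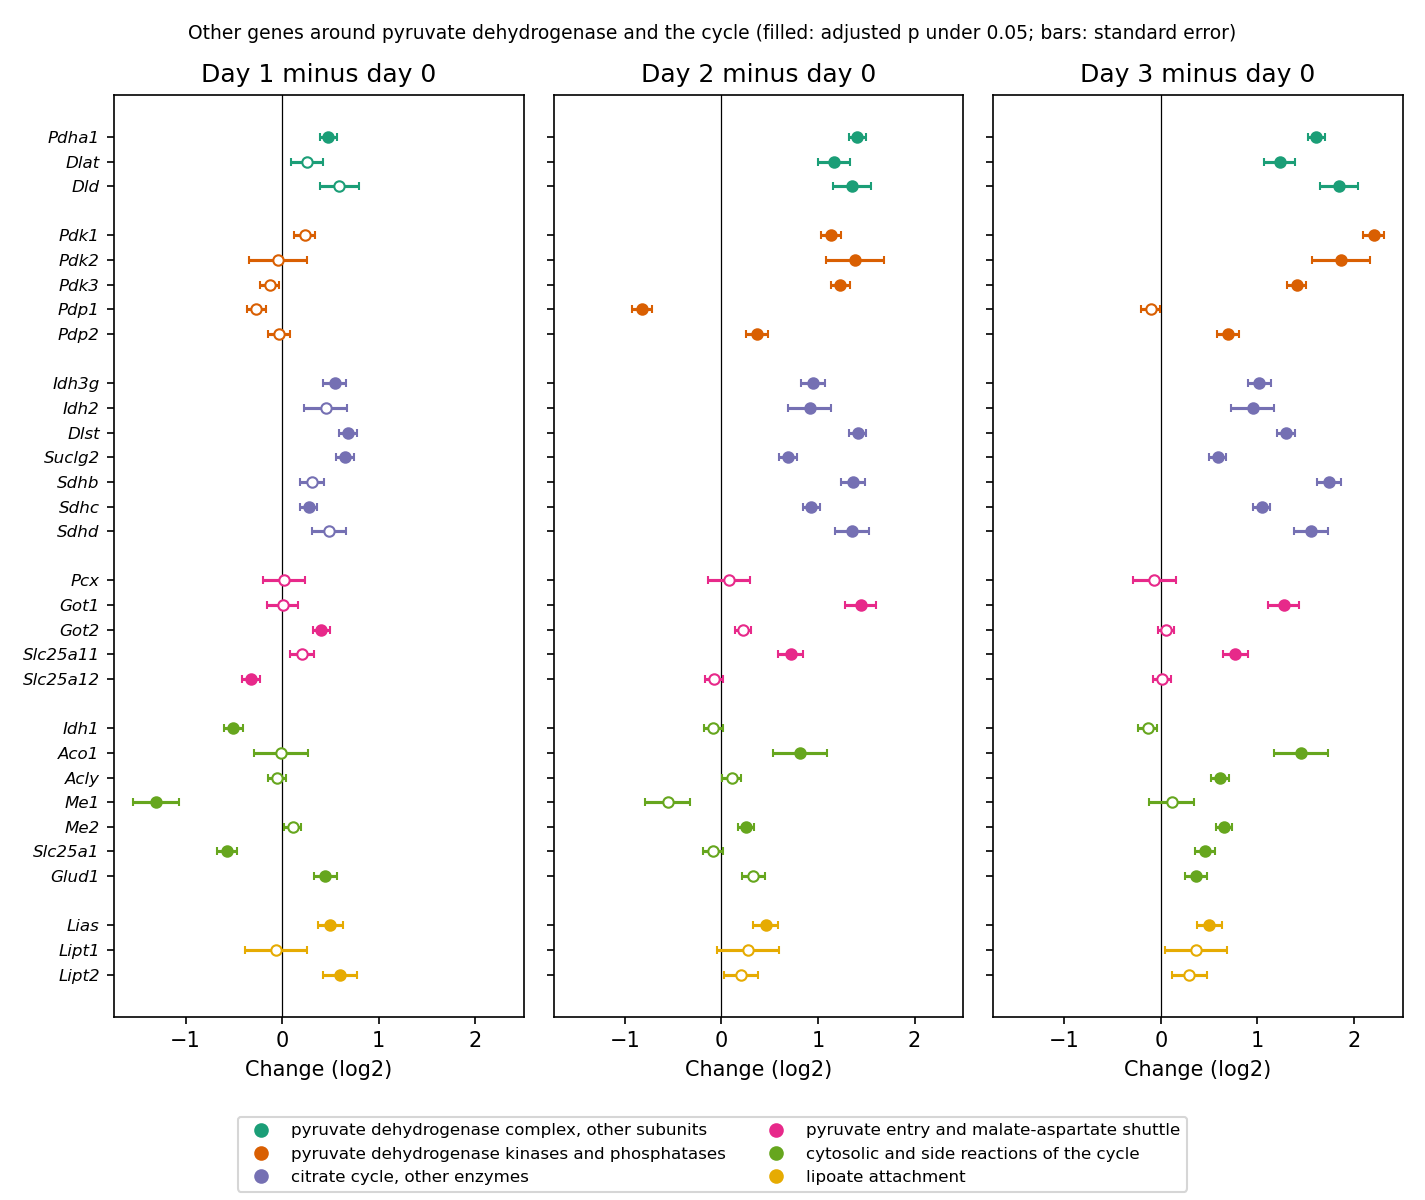
Change from day 0 (log2, horizontal axis) at days 1, 2 and 3 of the 30 tested genes on 6 lists, coloured by list. Points are fitted changes of the probe of highest mean, bars standard errors (n = 2 arrays per day), and filled points have an adjusted p under 0.05; the 10 further genes of the complex and the cycle are all filled at days 2 and 3, while the malate-aspartate shuttle and the cytosolic genes are mixed.

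Likeness to the 9 genes was measured as the root mean square difference, over the 8 arrays, between a gene's log2 value minus its day 0 mean and the median of the same over the 9 genes, among 6540 other genes detected on all 8 arrays. The 5 nearest were Atp6v0b (0.064), Wsb2 (0.067), Pdha1 (0.071), Cox15 (0.080) and Strbp (0.082). Atp6v0b codes for a subunit of the V-ATPase proton pump and Cox15 for a protein needed for the heme of cytochrome oxidase. Of the 9 genes, Cs and Idh3b lay nearest to this median (0.078 and 0.078) and Pdhb farthest (0.64). The 5 genes nearest to Pdhb itself were Pstpip1 (0.083), Sgsm3 (0.13), Rhbdf1 (0.15), Repin1 (0.15) and Pxn (0.15), of which Pstpip1 and Pxn code for proteins of the actin cytoskeleton and its adhesions. These distances describe 8 arrays of 4 days and carry no test.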

How the data were processed

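Gene expression was measured on 8 single-colour MouseRef-8 v2.0 bead arrays, 2 for each of days 0, 1, 2 and 3. Each deposited probe value is a signal per the file headers, and by its values a linear intensity from which no background was subtracted. Beside it stands a deposited detection p-value, whose equal steps imply 798 negative-control values. The authors' processed intensity values had no entry for 56 probes, lay on a linear scale 76.0 to 86.3 below the signal in the median of an array, and were used for an alternative setting. How the authors made them, and the scanner software, are not given in the sources used here.

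Background was corrected by normexp (offset 16), with control moments inferred from detection p-values, followed by quantile normalization and log2 (neqc, limma 3.58.1, R 4.3.3). Of 25697 probes 23978 had 1 gene symbol and 1719 none, 23962 matched the RefSeq table by Entrez number and 0 symbols changed. The detection filter (p under 0.05, at least 2 of 8 arrays) left 12683 probes of 8663 genes, tested by lmFit and eBayes with 4 residual degrees of freedom and Benjamini-Hochberg adjustment per comparison. The median standard error of a difference was 0.13, and the number of arrays limits the precision. Named list genes were up to 4 per list, called by the F test, with the largest change, or the whole list where at most 5 were tested. Idh3g, named beside its partner subunits, and Suclg2 and Idh2 were chosen after their values were seen. The 9 genes, the lists and the tests were chosen with earlier results of these data known. The model was tested on simulated data. The closing section gives the alternatives. A slide as a block was not run, since column names give no slide.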

Additional observations from a re-analysis of the deposited data

How the results depend on the processing

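Among 18 counts of calls and the count of differing probe pairs, most stayed within 1.5 times under the other settings (188 of 198 comparisons, and 141 of 152 with an array left out). All 9 genes were called higher at day 2 and day 3 against day 0, at day 2 against day 1, and in the F test, under every setting and with any array left out. At day 1 the other settings gave 5 to 6 genes and arrays left out gave 4 to 5. For day 3 minus day 2, where quantile-normalized neqc values called none of the 9, 2 were called without background correction and 2 with a trend and robust variance prior (Idh3b and Mdh2 both times), and 1, Idh3b, with the authors' processed values and among probes detected on all 8 arrays. List genes called in that step numbered 5, against 10 without background correction and 10 with the trend and robust prior, and 2 when only these days were fitted. Fitting only these days called 1037 probes, against 2349. Differing pairs of probes numbered 304, against 1283 without background correction and 779 with the authors' values. The difference between the Pdhb probes turned its sign without background correction, to -0.92 at day 3 against day 0 and -0.47 at day 2 against day 1, and to -0.53 at day 3 against day 0 with the authors' values. The cause was not tested.

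With 1 array left out (the lone array of that day is assumed to vary like the others), probes called were 3952 to 5478 for day 1, 5222 to 6452 for day 2 and 6303 to 6902 for day 3 against day 0, 4157 to 5681 for day 2 minus day 1, 547 to 2167 for day 3 minus day 2 (547 and 621 without replicate 1 or 2 of day 2, 1344 and 767 without replicate 1 or 2 of day 3) and 7878 to 8577 in the F test. List genes called were 7 to 12 at day 1 (8 without replicate 2 of day 0, 7 without replicate 1 of day 1, against 13), 14 to 19 at day 2, 19 to 22 at day 3, 13 to 19 for day 2 minus day 1 and 2 to 5 for day 3 minus day 2 (2 without either replicate of day 2 or replicate 2 of day 3), and differing pairs 181 to 293 (187 and 181 without replicate 1 or 2 of day 1).

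The replicate numbers share no stated source, and same-numbered arrays did not deviate together (correlations of -0.088 to 0.076 between days). With the replicate block 5 of 9 genes were called at day 1 and 9 at days 2 and 3, and the Mdh1 probe ILMN_2891176 was called higher at day 3 (0.60, limma adjusted p = 0.0162) and from day 2, where it was not detected, to day 3 (at least 1.30-fold, limma adjusted p = 0.0480 with the block). Signals near background, as for that probe, limit what can be seen.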
